A study of Mus musculus with 5 samples.

Results

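The 2 T cell libraries of a doxorubicin (DOX) study in 4T1 mammary tumors held 1741 cell barcodes in which mitochondrial transcripts made up more than 10% of the RNA molecules counted. They were chosen by that share itself: barcodes with at least 500 detected genes and over 10% of their unique molecular identifiers (UMIs, 1 per captured RNA molecule) in the 13 genes of the mitochondrial genome that were listed. They are called high barcodes here, and the others with at least 500 genes, at 10% or less, low barcodes. The high barcodes were 123 of 3683 such barcodes in the library from DOX sensitive tumors and 1618 of 4868 in the library from DOX resistant tumors, out of 8551 in both, of 10065 barcodes of any gene number there and of 11119 in the 5 libraries of the series.

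Both libraries came from BALB/c mice, 12 weeks old per the labels, that carried 4T1 tumors (a triple-negative mouse mammary cancer line, here marked with Thy1.1) in the mammary fat pad. All the mice had received DOX, an anthracycline, intravenously at 5 mg/kg in 3 doses given 3 days apart. Tumors were called sensitive where growth had slowed under DOX and resistant where it had not. T cells were enriched from digested tumor by magnetic depletion of other immune cells and of Thy1.1 (CD90.1) cancer cells, and cells of 3 tumors went into each library according to the methods. Each group therefore had 1 library, a difference between groups has no replicate check, and no p-value is given. Brackets after a value hold 95% intervals (Clopper-Pearson for a share, exact conditional binomial for a ratio) that cover counting error only, since barcodes of 1 library are not replicates. No untreated T cell library was analysed, and the 3 whole-tumor libraries were not used here.

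The mitochondrial genome encodes subunits of the respiratory chain and the ATP synthase, and its transcripts stay inside the organelle. A high mitochondrial share is best known in droplet data as a mark of cells whose membrane has leaked cytoplasmic RNA while mitochondria stayed behind, and barcodes past a limit are commonly removed. Cells rich in mitochondria can reach such shares too, and nuclear RNAs such as Malat1 are known to be retained in leaking cells. Which of these held for the barcodes described here was not tested.

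The sensitive library held 31690845 UMIs in 3949 barcodes and the resistant library 35908799 in 6116, and mitochondrial genes took 2.84% and 7.18% of them. The 2 libraries shared 31 barcode sequences, of which 8 were high in the resistant library and none in the sensitive one. Barcodes with the highest Scrublet doublet scores were kept. They made up 2.97% of high and 4.37% of low barcodes of the resistant library, and 2.44% and 2.98% in the sensitive one. Both libraries held other cells than T cells: 59.2% (sensitive) and 59.3% (resistant) of low barcodes fell in T cell- or natural killer (NK) cell-like clusters, next to fibroblast-like, macrophage-like, neutrophil-like and cancer cell-like clusters. Depletion of other cells was thus incomplete in both.

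High barcodes were 33.2% (31.9 to 34.6) of the resistant library and 3.34% (2.78 to 3.97) of the sensitive one. The whole distribution lay higher in the resistant library: its low barcodes had a median mitochondrial share of 4.93%, against 2.39% in the sensitive library. Among high barcodes the medians were alike, at 15.5% and 14.6%. No gap in the distribution marked the limit. As many as 242 resistant barcodes lay between 9% and 10% and 211 between 10% and 11%, and in the sensitive library 28 and 27 did. The members nearest to the limit had 10.01% (resistant) and 10.04% (sensitive), and the nearest low barcodes 9.998% and 9.97%. These shares chose the barcodes and are a description only.

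**Figure D1:**
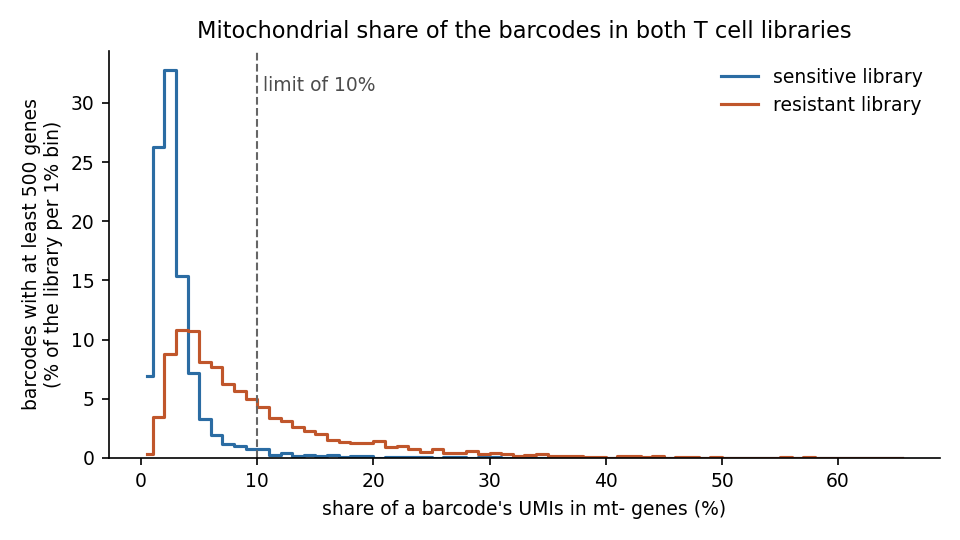
Share of each barcode's UMIs in mt- genes (x axis, percent, bins of 1%) against the percent of the library's barcodes with at least 500 genes (y axis), for the sensitive (blue) and resistant (orange) library; the dashed line is the 10% limit. The resistant curve runs through the limit without a break, and 33.2% of its barcodes lie to the right of it, against 3.34% of the sensitive ones.

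High barcodes were shallow, and their shortfall lay outside the mitochondrial genes. Those of the resistant library had a median of 2756.5 UMIs, against 5782 in low barcodes. Outside mt- genes the medians were 2261 and 5433.5, a ratio of 0.416, while mitochondrial UMIs were higher, at 463.5 against 301. Genes per barcode had medians of 1011 and 1872.5. The sensitive library showed the same order, with medians of 2285 against 4980.5 UMIs, 1843 against 4830.5 outside mt- genes and 367 against 131.5 in them. The depletion went on within the high group: in the resistant library the median outside mt- genes was 2848 UMIs at 10 to 15%, 2068 at 15 to 25%, 1431.5 at 25 to 50% and 1035.5 in the 14 barcodes above 50%, while median mitochondrial UMIs went from 388 to 480, 687.5 and 1334. A larger share with fewer other UMIs is in part built into the rule.

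The make-up of the mitochondrial RNA itself was not used by the rule, which took only its sum. It was close to that of low barcodes of the same type. Among T/NK-like barcodes of the resistant library, mt-Co1, a catalytic subunit of cytochrome oxidase, took 17.4% of mitochondrial UMIs in high and 19.0% in low barcodes, a ratio of 0.912 (0.905 to 0.920). mt-Cytb, the cytochrome b of complex III, took 12.5% and 11.2%, a ratio of 1.12 (1.11 to 1.13). The same ratios in the sensitive library were 0.874 (0.844 to 0.905) and 1.19 (1.14 to 1.25). The 13 genes lay between a ratio of 0.874 for mt-Nd5 and 1.12 for mt-Cytb in the resistant library, and between 0.874 for mt-Co1 and 1.67 (1.15 to 2.36) for mt-Nd6, on 36 UMIs, in the sensitive one. A lower part of mt-Co1 and a higher part of mt-Cytb was thus common to both libraries.

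Lineage was read from 7 genes: Cd3e (a chain of the T cell receptor complex), Cd8a and Cd4 (its coreceptors), Col1a1 (collagen I, of fibroblasts), S100a8 (a calprotectin subunit, of neutrophils), Lyz2 (lysozyme, of myeloid cells) and Epcam (of epithelial and cancer cells). Because the groups differed in depth, each barcode was thinned to 500 UMIs outside mt- genes, and the share with at least 1 UMI of the gene was counted. Cd3e was found in 37.1% (34.8 to 39.6) of high and 33.2% (31.6 to 34.8) of low barcodes of the resistant library, so high barcodes carried this T cell marker no less often. Without thinning the shares were 63.0% and 61.6%. The order was the other way round in the sensitive library, with 17.1% (10.9 to 24.9) of high against 33.4% (31.8 to 34.9) of low barcodes.

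The other markers moved in opposite ways by cell type. S100a8 was more frequent in high barcodes of both libraries: 14.1% (12.4 to 15.9) against 6.002% (5.21 to 6.87) in the resistant and 17.1% (10.9 to 24.9) against 3.96% (3.35 to 4.66) in the sensitive library. Col1a1 was less frequent in both, at 3.15% (2.36 to 4.12) against 17.1% (15.8 to 18.4) and 8.13% (3.97 to 14.4) against 20.4% (19.1 to 21.8). Lyz2 had 6.98% against 7.08% in the resistant library, within counting error, and 14.6% (8.91 to 22.1) against 5.93% (5.18 to 6.76) in the sensitive one. Epcam was found in 1.24% (0.757 to 1.90) and 1.91% (1.47 to 2.44) of resistant and in 2.44% (0.506 to 6.96) and 2.11% (1.66 to 2.64) of sensitive barcodes, intervals that overlap. In T/NK-like barcodes, which should lack the gene, a thinned UMI of S100a8 was found in 0.706% of high and 0.623% of low barcodes of the resistant library (median depth of all T/NK-like barcodes 3818 UMIs, of neutrophil-like ones 2345), so the shares over all barcodes were above this background.

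The coreceptors were compared both over all barcodes and within T/NK-like ones. Resistant barcodes had a Cd4 UMI in 1.98% (1.36 to 2.78) of high against 0.862% (0.573 to 1.24) of low barcodes, and its level in counts per 1000000 UMIs outside mt- genes (CPM) was 44.6 against 10.9, a ratio of 4.11 (3.41 to 4.94). Without thinning the Cd4 shares were closer, at 6.67% and 5.39%. Cd8a was found in 28.4% (26.2 to 30.7) and 26.2% (24.7 to 27.7), and both Cd8a and Cd3e had a CPM ratio of 1.94 over all barcodes, of which T/NK-like ones were a larger part among high barcodes. Within T/NK-like barcodes the CPM ratios were 2.43 (2.002 to 2.94) for Cd4 and 1.03 (0.995 to 1.07) for Cd8a. Within T/NK-like barcodes of that library, 2.65% (1.79 to 3.76) of high and 0.986% (0.595 to 1.54) of low barcodes had Cd4 and no Cd8 UMI after thinning. The CD8 gate (Cd8a or Cd8b1, no Cd4) held 57.7% (54.8 to 60.6) and 64.0% (61.8 to 66.2). The CD4 gate of the sensitive library held 2 of 48 high and 64 of 2106 low T/NK-like barcodes, a difference not detectable at this depth. Under a gate of at least 1 Ptprc and 1 Cd3e UMI, which marks CD45+ T cells, 818 of 2587 resistant barcodes were high (31.6%, 29.8 to 33.5) and 30 of 1825 sensitive ones (1.64%, 1.11 to 2.34).

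Leiden clusters drawn without mt- genes were named from marker lists as "-like" classes, and these names were rebuilt here, so they may differ from the study's. Neutrophil-like barcodes were the class with the largest high share in both libraries among classes of over 100 barcodes: 239 of 427 (56.0%, 51.1 to 60.7) in the resistant and 22 of 175 (12.6%, 8.05 to 18.4) in the sensitive library. T/NK-like barcodes were high in 1133 of 3060 cases (37.0%, 35.3 to 38.8) in the resistant and 48 of 2154 (2.23%, 1.65 to 2.94) in the sensitive library. Macrophage- or monocyte-like barcodes came to 31.2% (26.1 to 36.7) and 6.10% (3.45 to 9.86). Cancer cell-like barcodes had 20.1% (14.8 to 26.3) and 11.5% (6.72 to 18.0), intervals that overlap. Fibroblast-like barcodes were lowest among these classes, at 9.66% (7.60 to 12.1) and 1.82% (1.04 to 2.94), and were also among the deepest, with medians of 12955 and 13009 UMIs. Small classes are given as counts: 24 of 84 resistant and 4 of 43 sensitive dendritic cell-like barcodes were high, 6 of 14 and 0 of 10 endothelial-like, and 5 of 15 and 0 of 22 mast cell- or basophil-like. The 0 of 10 and 0 of 22 allow shares of up to 30% and 13.6%.

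**Figure D2:**
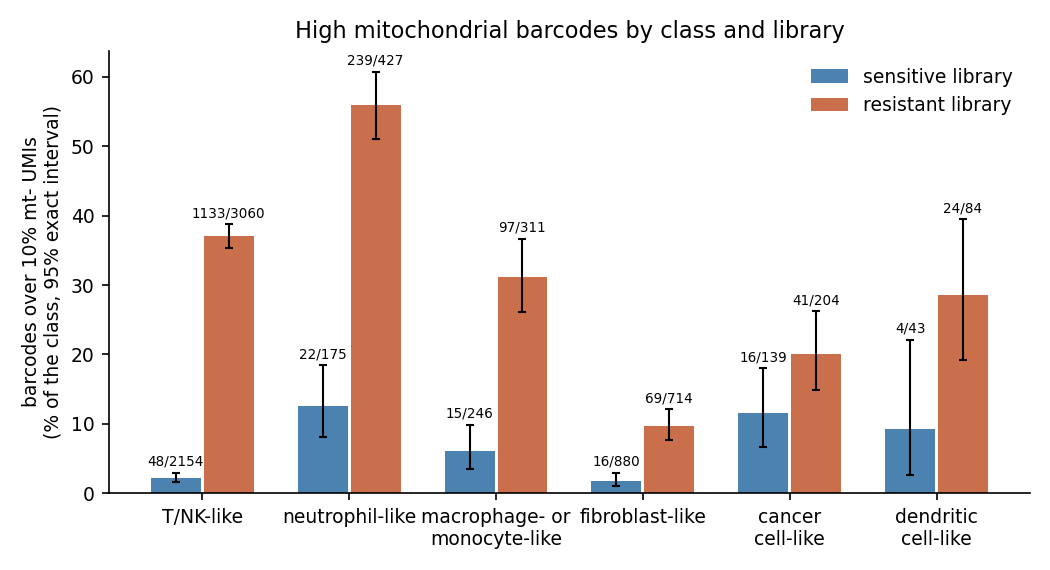
Percent of each class's barcodes that are over 10% mt- UMIs (bars, with Clopper-Pearson 95% intervals as error bars and the counts above) in the sensitive (blue) and resistant (orange) library. In the resistant library the share runs from 9.66% in fibroblast-like to 56.0% in neutrophil-like barcodes, and in each class shown the resistant bar is the higher one, with overlapping intervals for cancer cell-like and dendritic cell-like barcodes.

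The high barcodes therefore had another composition in each library. Of the resistant ones 70.0% (67.7 to 72.3) were T/NK-like, above the 59.3% of low barcodes, 14.8% were neutrophil-like (5.78% of low) and 4.26% fibroblast-like (19.8% of low). Of the sensitive ones 39.0% (30.4 to 48.2) were T/NK-like, below the 59.2% of low barcodes, and 17.9% were neutrophil-like, 13.01% each fibroblast-like and cancer cell-like and 12.2% macrophage-like. At finer clustering (resolution 2) the resistant macrophage-like and cancer cell-like high barcodes were most frequent in shallow clusters. A macrophage-like cluster led by C1qa, C1qc and Lyz2, with a median of 2168 UMIs, was high in 55 of 77 resistant and 0 of 33 sensitive barcodes. The deeper macrophage-like clusters, with resistant medians of 9055.5 and 12925 UMIs, had 26 of 130 and 11 of 98 resistant barcodes high, and a small one 5 of 6. A cancer cell-like cluster led by Wfdc2, Krt18 and Krt8, with a median of 2660 UMIs, was high in 33 of 72 and 0 of 27. In the deep cancer cell-like cluster (medians of 23885 and 21015.5 UMIs) the order was reversed, with 6 of 121 resistant and 16 of 110 sensitive barcodes high. Cluster sizes themselves are not read here, since these clusters separate barcodes in part by depth.

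Depth moved with the high share within a class as well. Among T/NK-like barcodes of the resistant library, 66.6% (61.7 to 71.2) were high at 500 to 2000 UMIs (mt- genes included), 48.3% at 2000 to 4000, 23.4% at 4000 to 8000 and 6.12% (3.92 to 9.04) above. The same bins of the sensitive library held 9.75% (6.52 to 13.9), 1.68%, 0.886% and 0 of 254. The resistant library had the larger share in each of these bins, within which depth was not matched further. Neutrophil-like barcodes of the resistant library differed less over the first 3 bins, with 59.0%, 59.1% and 44.9%.

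Among T/NK-like clusters of the resistant library the high share ran from 12.9% to 56.0%. The highest was cluster 6, led by Ms4a4b, Gimap3, Gimap4 and Ltb, genes of quiescent lymphocytes, with 164 of 293 (56.0%, 50.1 to 61.7) and the lowest median depth of these clusters there (2503 UMIs). Cluster 17, small and led by Il17a, Trdv4 and Cd163l1 with Trdc, genes known from IL-17-producing gamma-delta T cells, had 11 of 22. Cluster 8, led by the type 2 cytokine genes Il13 and Il4 with Ccl1, Penk and Csf2, had 61 of 126 (48.4%, 39.4 to 57.5). Clusters 0, 2 and 10, with Cd8a and Cd8b1 among their leading genes, had 38.1%, 41.1% and 36.7%, and cluster 1, led by Gzma and Gzmb with the same genes, 30.1%. Cluster 13, led by Tnfrsf4 and Ctla4 with Foxp3, had 25 of 67, and cluster 14, led by Gzmc, Gzma and Ncr1, 21 of 73. The lowest was cluster 9, with 36 of 280 (12.9%, 9.17 to 17.4) and the greatest depth (median 9406 UMIs). The order was another one in the sensitive library, where cluster 6 was at the lower end with 3 of 261 (1.15%, 0.238 to 3.32) and cluster 0 at the upper end with 13 of 248 (5.24%, 2.82 to 8.80), intervals that overlap.

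Within T/NK-like barcodes, genes outside the mitochondria were compared as CPM of summed UMIs, high over low, and counted when they differed by more than 1.5-fold. Genes were eligible when at least 10 UMIs would be met in the high group at the pooled rate, in both libraries. The sensitive library had 48 high barcodes with 102890 UMIs in all, and 169 of 1458 eligible genes (11.6%) were higher and 250 (17.1%) lower there. The resistant library had 1133 high barcodes with 3059785 UMIs, and 23 (1.58%) were higher and 45 (3.09%) lower. In both libraries at once 8 (0.549%) were higher and 24 (1.65%) lower. The median ratio was 0.924 and 0.978, a log2 shift of -0.11 in the sensitive library, which scaling by the median would remove. With eligibility asked of the resistant library alone, 796 of 9533 genes (8.35%) were higher and 577 (6.05%) lower, at a median of 1.05.

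Stress and death genes gave counts close to those of all genes. Of 37 eligible genes on 9 lists (immediate early, heat shock, endoplasmic reticulum (ER) and integrated stress, mitochondrial quality, p53 targets, apoptosis, survival, lytic death, oxidative stress), 5 were higher and 4 lower in the sensitive library, 0 and 2 in the resistant one, and none of the 37 passed 1.5-fold the same way in both. The 0 of 37 stands beside 0.549% and 1.65% of all genes, the sensitive counts beside 11.6% and 17.1%, and the resistant ones beside 1.58% and 3.09%. In the sensitive library they rested on few UMIs: without the barcode with most UMIs of each gene they were 2 higher and 9 lower. That setting takes 1 of 48 high but 1 of 2106 low barcodes from each gene and so lowers ratios by itself. The median over all genes came to 0.788 under it, from 0.924, and calls over all genes were not counted there.

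By list, and with eligibility in the resistant library alone, where 8.35% of all genes were higher and 6.05% lower, the immediate early genes had a median ratio of 1.31 over 14 genes, 13 of them above 1, beside the 1.05 of all genes. Fos and Jun, subunits of the AP-1 transcription factor, had ratios of 1.40 (1.26 to 1.55) and 1.44 (1.34 to 1.54), and Fosb alone of the list passed 1.5-fold (1.57, 1.36 to 1.82). Fosb was past it in the sensitive library too, at 6.11 (4.52 to 8.08) on 52 UMIs in high barcodes, but had too few expected UMIs there to be among the 37 genes. With depth matched it had 4.45 in the sensitive and 1.05 (0.884 to 1.25) in the resistant library. Fos and Jun of the sensitive library had 1.28 (0.933 to 1.72) and 1.14 (0.828 to 1.54), intervals that include 1, while Egr1 and Klf6 passed 1.5-fold at 1.94 (1.18 to 3.01) and 1.90 (1.53 to 2.32). Heat shock genes had a median of 1.08, with the inducible chaperones Hspa1a and Hspa1b at 1.53 (1.31 to 1.77) and 1.69 (1.40 to 2.05) and the constitutive Hspa8 and Hsp90ab1 at 0.843 (0.812 to 0.874) and 0.763 (0.740 to 0.787). With depth matched Hspa1a and Hspa1b came to 1.02 (0.854 to 1.23) and 1.06 (0.846 to 1.33). Ddit3, the integrated stress factor CHOP, had 1.54 (1.25 to 1.89), against 0.635 (0.539 to 0.744) for the ER cochaperone Sdf2l1. p53 targets lay at a median of 1.01 with Cdkn1a, the cell cycle inhibitor p21, at 0.574 (0.456 to 0.717) and Bax at 0.827 (0.755 to 0.906). With depth matched Ddit3, Sdf2l1 and Cdkn1a came to 1.17 (0.907 to 1.52), 0.949 (0.770 to 1.17) and 1.06 (0.782 to 1.43), none of them past 1.5-fold.

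Apoptosis genes had a median of 0.897 and none of 15 passed 1.5-fold, beside 8.35% higher and 6.05% lower of all genes, with the death ligand gene Fasl at 1.11 (0.991 to 1.24). With depth matched 1 was lower, Casp6 at 0.547 (0.366 to 0.808), against 0.723 before, beside 284 of all 9591 genes then eligible. Genes of lytic death had a median of 0.948, with 1 of 11 lower than 1.5-fold (Gsdme, 9 UMIs in high barcodes). With depth matched 2 of 11 were lower, Gsdme at 0.637 (0.243 to 1.58) and Mlkl at 0.660 (0.328 to 1.30), intervals that include 1. Survival genes had a median of 1.10, with Bcl2 at 1.45 (1.36 to 1.53) and Mcl1 at 1.38 (1.23 to 1.54). Of 9 survival genes 1 passed 1.5-fold, Birc3 at 1.61, which came to 1.46 (1.12 to 1.92) with depth matched. Oxidative stress genes had a median of 0.928, and the metallothionein genes Mt1 and Mt2 were lower, at 0.491 (0.441 to 0.544) and 0.422 (0.315 to 0.555), but came to 0.983 (0.855 to 1.13) and 1.03 (0.698 to 1.51) with depth matched. Genes of mitochondrial quality control had a median of 1.01, with none of 10 past 1.5-fold, and Pink1, the kinase that marks damaged mitochondria, at 1.15 (0.903 to 1.46). Nuclear-encoded respiratory chain genes, partners of the mitochondrial subunits, were at 0.915 over 87 genes, with 72 of them below 1, and came to 0.998 with depth matched. Ribosomal protein genes were at 0.984 over 77 genes.

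A list named for nuclear-retained RNA had 3 members eligible in both libraries: the nuclear RNAs Malat1 and Neat1, and Gm42418, which is of another kind. All 3 were past 1.5-fold higher in the sensitive library (11.6% of all genes) and 1, Malat1, in the resistant one (1.58%), where with depth matched none was. Malat1, a nuclear long noncoding RNA (chr19:5795690-5802672, minus strand, mm10), had 12091 CPM in high and 4471 CPM in low T/NK-like barcodes of the sensitive library, a ratio of 2.70 (2.55 to 2.86), and 5865 against 3856 CPM in the resistant one, a ratio of 1.52 (1.49 to 1.55), which came to 1.04 (1.01 to 1.06) with depth matched. Neat1, a nuclear RNA that builds paraspeckles, had ratios of 2.71 (1.77 to 3.96) and 1.49 (1.30 to 1.69). Gm42418, which overlaps ribosomal RNA sequence on chromosome 17 together with the antisense-lying AY036118, had 1.81 (1.74 to 1.89) and 1.29 (1.28 to 1.31). These 2 genes lie on opposite strands, and how well their reads were separated was not tested. By mitochondrial share, Malat1 of the resistant library went from 3223 CPM below 5% mitochondrial share to 4621 at 5 to 10%, 5311 at 10 to 15%, 6251 at 15 to 25% and 8473 at 25 to 50%. Cytoplasmic housekeeping genes were at a median of 0.895, with Actb at 0.703 (0.692 to 0.714) in the resistant and 0.821 (0.763 to 0.883) in the sensitive library.

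The 10 eligible genes with the highest ratio, ranked by the library where it lay nearer to 1, were Ccr2, Bcl11b, AY036118, Il13, Mxd1, A430010J10Rik, Malat1, Zfp36l1, AU020206 and Satb1, the last 2 just under 1.5-fold in the resistant library. Ccr2, a chemokine receptor gene, led with 1.96 (1.21 to 3.01) in the sensitive and 1.73 (1.44 to 2.07) in the resistant library. Its sensitive ratio was 0.891 as a mean of single barcodes and 0 at a limit of 20%, with 7 high barcodes. Bcl11b and Satb1, T cell transcription and chromatin factors, had 2.06 (1.36 to 2.99) and 2.08 (1.35 to 3.06) in the sensitive and 1.68 (1.51 to 1.87) and 1.49 (1.30 to 1.71) in the resistant library. The place of Il13 rested on single barcodes: all of its 59 UMIs in sensitive high T/NK-like barcodes came from 1 barcode, and 154 of 163 in resistant ones from another.

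The 10 lowest were Ube2c, Fabp5, Lmnb1, Tubb5, Top2a, Pclaf, Trbv1, Stmn1, CAAA01147332.1 and Ran, of which Ube2c, Top2a, Pclaf and Stmn1 belong to cell division. Ube2c, a ubiquitin enzyme of mitotic exit, had 46.1 against 180.5 CPM among resistant barcodes (ratio 0.255, 0.214 to 0.303), and Pclaf, a partner of the replication clamp, 37.9 against 195.6 CPM, a ratio of 0.194 (0.159 to 0.234). All 12 cell cycle genes of the list were lower there, at a median of 0.391, beside 6.05% of all genes. This direction turned with depth matched, to a median of 1.64 with 8 of 12 past 1.5-fold higher, beside 665 of all 9591 genes then eligible. Counts were small in the sensitive library, with 2 UMIs of Ube2c and 7 of Pclaf in high barcodes. Barcodes with at least 10 UMIs of the list had a median of 10040 UMIs outside mt- genes among low and 5159 among high barcodes of the resistant library. They made up 12.9% (11.5 to 14.5) and 1.85% (1.15 to 2.82). This cut takes an absolute count, so it selects deep barcodes by itself and favors the deeper low group.

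T cell function genes differed in both directions. Of 20 on the list, eligible in the resistant library, 5 were higher and 3 lower, beside 8.35% and 6.05% of all genes. With depth matched 1 was higher and 1 lower, beside 665 and 284 of all 9591 genes then eligible. Tcf7 and Il7r, genes of naive and memory T cells, had resistant ratios of 2.32 (1.90 to 2.83) and 1.66 (1.55 to 1.78), and the cytotoxic genes Gzmb, Prf1 and Gzmf had 0.469 (0.442 to 0.498), 0.558 (0.492 to 0.631) and 0.185 (0.157 to 0.216). With depth matched Il7r came to 1.17 (1.07 to 1.27), Gzmb to 0.690 (0.641 to 0.742) and Prf1 to 0.933 (0.794 to 1.10), none of them past 1.5-fold, while Tcf7 at 1.503 (1.18 to 1.93) and Gzmf at 0.460 (0.381 to 0.553) still were. Sensitive high barcodes went the other way for Gzmb and Prf1, at 1.53 (1.31 to 1.78) and 2.20 (1.64 to 2.91). Without the barcode with most of its UMIs in each group, Gzmb came to 0.890 there, beside a median of 0.788 over all genes under that setting. Exhaustion receptor genes lay closer to 1 in the resistant library, Pdcd1 at 0.862 (0.807 to 0.921), Lag3 at 1.13 (1.05 to 1.21) and Ctla4 at 1.02 (0.931 to 1.12). Interferon response genes were above 1 in 10 of 10 cases there, with Ifit3 at 1.80 (1.51 to 2.15) and Isg15 at 1.31 (1.22 to 1.41), beside a median of 1.05 over all genes. With depth matched 3 were above and 7 below 1, none past 1.5-fold, and Ifit3 and Isg15 came to 1.11 (0.8999 to 1.37) and 0.949 (0.871 to 1.03). The sensitive library had a median of 0.928 over the 4 members eligible in both, with Bst2 lower at 0.508 (0.296 to 0.815), and of 0.692 with depth matched.

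Fewer genes differed in the resistant library when depth was matched. When low T/NK-like barcodes were limited to those whose UMIs outside mt- genes lay between the 10th and 90th percentile of the high ones (1171.4 to 4423.4, leaving 998 of 1927), genes past 1.5-fold went from 23 to 3 higher and from 45 to 2 lower, of 1479 then eligible. Those higher were Ccr2, Penk and Trbv14 and those lower Il17a and Trbv1. Penk had been at 0.808 before matching and came to 3.21, and Il17a went from 1.23 to 0.358. Single barcodes gave 61 of the 73 Il17a UMIs of high and 180 of the 202 of low barcodes. Of 360 Penk UMIs in high barcodes of all classes, 103 came from 1 barcode. Ccr2, at 1.56 (1.23 to 1.97), and Trbv1, at 0.493 (0.403 to 0.602), were also among those before matching. Malat1 came to 1.04 (1.01 to 1.06), Actb to 1.02 (1.00 to 1.05), Fos to 0.971 (0.859 to 1.10) and Bcl2 to 1.05 (0.976 to 1.12). The interferon list came to a median of 0.958 and the immediate early list to 1.02. For the cell cycle genes, whose direction turned, the matching left out low barcodes above 4423.4 UMIs and kept all high ones. The 249 low barcodes with at least 10 UMIs of the list held 85.5% of its UMIs among low barcodes, at a median of 10040 UMIs. That cut favors deep barcodes by itself, and the cause of the turn was not tested. Among all 9591 genes eligible in the resistant library alone, many of them with few UMIs, 665 were past 1.5-fold higher and 284 lower, against 796 and 577 before. These were not all the same genes: Stmn1 went from 0.233 to 1.68 and Top2a from 0.420 to 1.82. The matched low barcodes also kept a larger median, with 3092.5 UMIs outside mt- genes against 2421. Shallow low barcodes lay nearer to the limit as well. At 2000 to 4000 UMIs outside mt- genes 478 had a share of 5 to 10% and 215 under 5%, against 1129 and 798 at any depth. Depth and mitochondrial share thus changed together, and their parts cannot be told apart here.

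**Figure D3:**
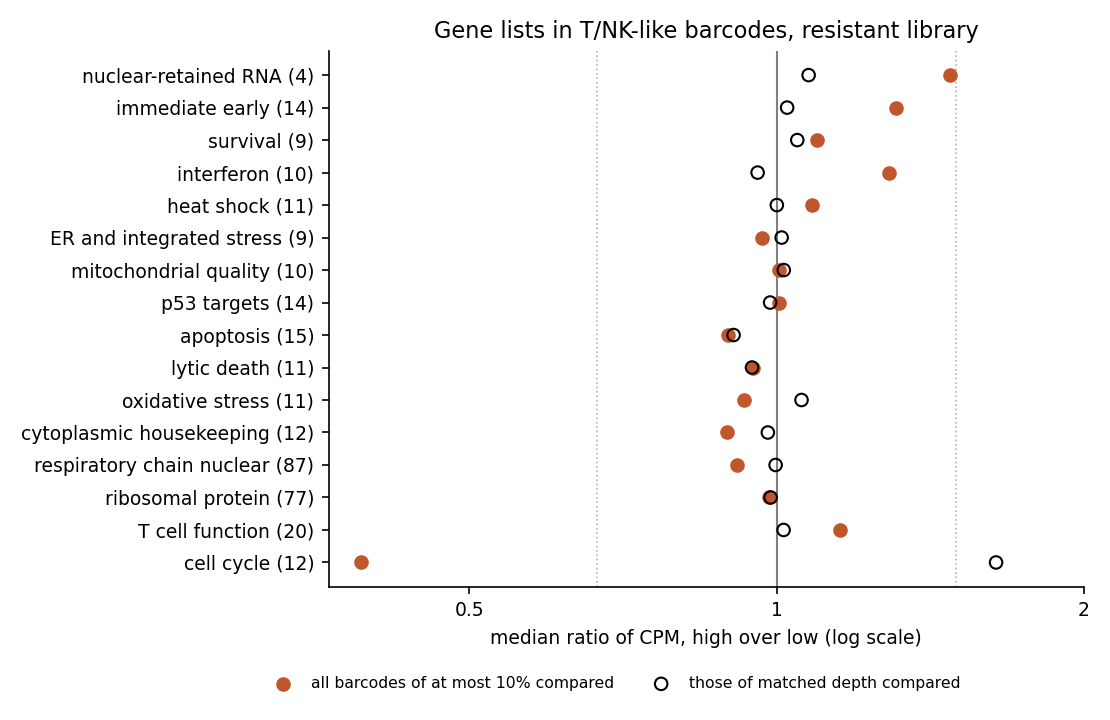
Median ratio of CPM, high over low T/NK-like barcodes of the resistant library (x axis, log scale), for each gene list with its number of eligible genes in brackets; filled points use all low barcodes, open points those of matched depth, and dotted lines mark 1.5-fold. Filled points range from 0.391 (cell cycle) to 1.48 (nuclear-retained RNA), and every open point but that of the cell cycle (1.64) lies between 0.908 and 1.08.

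Bins of depth, here of UMIs outside mt- genes, gave mixed values. At 2000 to 4000 UMIs, T/NK-like barcodes of the resistant library had 5366 CPM of Malat1 at under 5% mitochondrial share, 5742 at 5 to 10%, 5556 at 10 to 15% and 6055 above 15%. Actb went from 5704 to 5866, 5572 and 5363 CPM and Cd3e from 1707 to 1710, 1673 and 1635 in the same bins. Below 2000 UMIs Malat1 was lower under 5%, at 6052 CPM on 25 barcodes, than in the other bands, at 8593, 8918 and 8998 CPM, and at 4000 to 8000 UMIs the 4 bands had 3978, 3994, 4280 and 4375 CPM. Between depths the values differed as well: at 5 to 10%, Malat1 had 8593 CPM below 2000 UMIs and 3994 CPM at 4000 to 8000.

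The sensitive library gave other values. With depth matched (999 low barcodes), Malat1 kept a ratio of 1.85 (1.74 to 1.96), Neat1 of 2.21 (1.43 to 3.28) and Gm42418 of 1.68 (1.61 to 1.76), and 165 genes of 1479 were higher and 181 lower. These low barcodes were still deeper, with a median of 2713 UMIs outside mt- genes against 1577 in high ones. The part of depth in these ratios was not tested. Of the genes eligible under both settings, 107 higher and 127 lower ones were shared with the comparison before matching. The difference between libraries was not tested. Against all low T/NK-like barcodes, without matching, markers of other types were higher in high ones: the summed fibroblast list had a ratio of 2.93 (1.82 to 4.47) in the sensitive and 2.07 (1.69 to 2.53) in the resistant library, with 6 of 7 members detected in each, and the macrophage list 3.09 (1.12 to 6.85), with 4 of 7 detected, and 2.31 (1.95 to 2.72), with 7 of 7. As levels these were 214 against 73.0 and 52.3 against 25.2 CPM for the fibroblast list and 58.3 against 18.9 and 80.1 against 34.7 CPM for the macrophage list. The cancer cell list had 2.04 (1.05 to 3.59) and 1.36 (1.18 to 1.56), and mural cell markers had 12 UMIs in the 48 sensitive high barcodes against 10 in all 2106 low ones, with Des at 0. Neutrophil markers were lower in the resistant library (0.655, 0.527 to 0.807), and S100a8 had no UMI in the sensitive high T/NK-like barcodes. The part of free or admixed RNA in the gene ratios was not tested.

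Malat1 was also taken per barcode, which was done after its pooled ratios were known. In high barcodes of the sensitive library its median share of UMIs outside mt- genes was 3.93% in fibroblast-like, 3.10% in cancer cell-like and 2.89% in macrophage-like barcodes, against 0.112%, 0.175% and 0.0790% in low barcodes of matched depth. There were only 16, 16 and 15 such high barcodes. T/NK-like ones, whose matched low barcodes were deeper as said above, had 1.28% against 0.518%. The same medians of the resistant library were 0.144% against 0.145%, 0% against 0.0362% and 0.0955% against 0.129%, and 0.498% against 0.469% in T/NK-like barcodes. Neutrophil-like barcodes had the largest of these medians in the resistant library, with 1.67% high and 1.36% matched low. In the sensitive library theirs was the largest among matched low barcodes, at 1.28%. Sensitive high ones had 1.61%, above T/NK-like but below fibroblast-, cancer cell- and macrophage-like barcodes.

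Some resistant high barcodes held no Malat1 at all, depending on class: 22 of 41 cancer cell-like, 24 of 69 fibroblast-like and 37 of 97 macrophage-like ones had no UMI of it. In the low barcodes of matched depth this was so in 15 of 37, 12 of 62 and 19 of 51. For macrophage-like ones that share was like that of the high barcodes (37.3% and 38.1%). The low barcodes were still deeper, with medians of 2766, 3651.5 and 3679 UMIs outside mt- genes against 1563, 2797 and 1664. Fewer UMIs alone leave more barcodes without a gene, so the counts cannot compare the groups at equal depth. After thinning, Malat1 was found in 31.7% of high and 40.5% of matched low cancer cell-like barcodes. The shares were 43.5% and 50% in fibroblast-like and 46.4% and 51.0% in macrophage-like ones, with overlapping intervals in each class. Without thinning, 1 of 239 neutrophil-like high barcodes lacked Malat1. Pooled values hid the barcodes without it. The pooled ratio of Malat1 in resistant fibroblast-like barcodes was 2.87 (2.77 to 2.98), but 1 high barcode gave 29.1% of the UMIs behind it, and in cancer cell-like barcodes, at 2.99 (2.83 to 3.17), 1 barcode gave 44.1%.

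**Figure D4:**
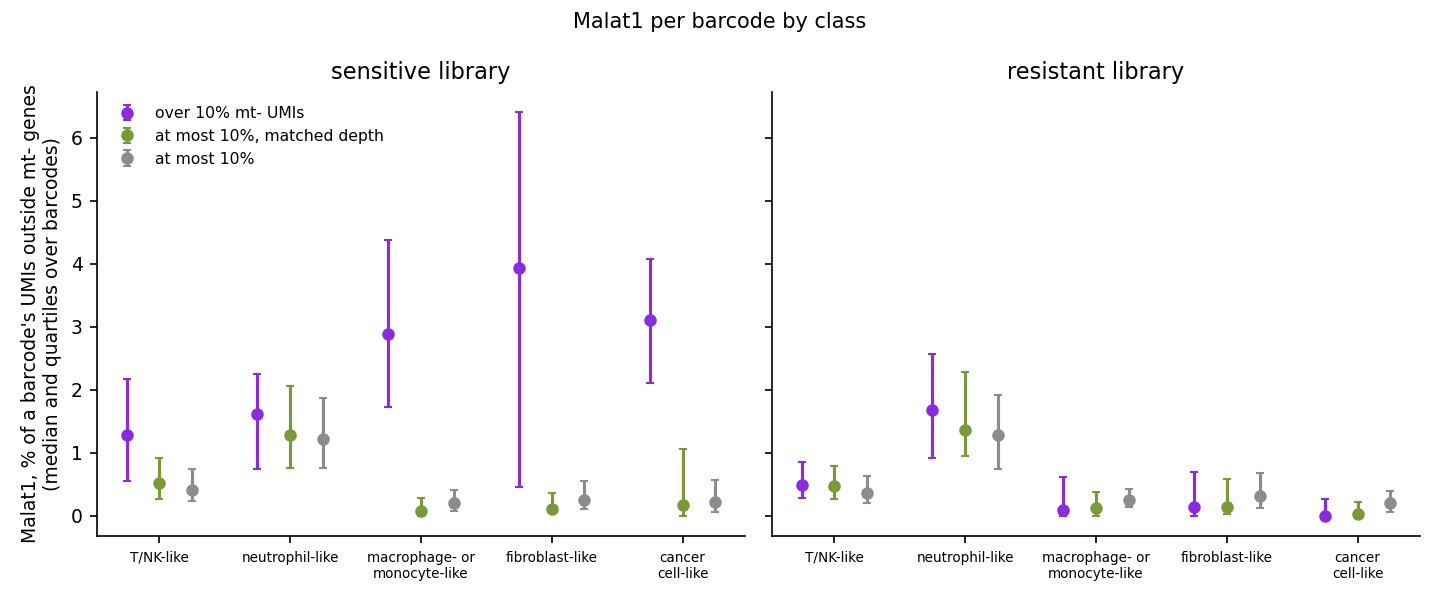
Malat1 as percent of a barcode's UMIs outside mt- genes (y axis; points are medians and bars quartiles over barcodes) in 5 classes of the sensitive and the resistant library, for high barcodes (purple), low barcodes of matched depth (green) and all low barcodes (grey). Purple points stand far above the others in the sensitive macrophage-, fibroblast- and cancer cell-like classes (2.89% to 3.93%) and next to the green ones in the same classes of the resistant library (0% to 0.144%).

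High barcodes also held a large part of some cytokine UMIs of the resistant library, and 1 barcode held most of that. A T/NK-like barcode of cluster 8, with 8234 UMIs, 2060 genes and a mitochondrial share of 10.2%, just past the limit, carried 310 of the library's 349 UMIs of Il4 (the type 2 cytokine interleukin 4) and 189 of 190 of Il3. It also carried 295 of 899 UMIs of Csf2 (GM-CSF), 581 of 2927 of Ccl1, 154 of 509 of Il13 and 97 of 3308 of Ifng. It had 7 UMIs of Cd3e, 5 of Gata3 (the type 2 regulator) and 1 of Cd4, and none of Cd8a, of the basophil and mast cell genes Mcpt8, Cpa3 and Fcer1a, or of Col1a1, Lyz2, S100a8 and Epcam. Its Scrublet score was 0.0271, below the library's median of 0.0557. Il4 (chr11:53602982-53618669), Il13 (chr11:53631324-53634702), Csf2 (chr11:54247271-54249667) and Il3 (chr11:54265303-54267277) lie on the minus strand of chromosome 11 (mm10).

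Counted over all high barcodes of the resistant library, 93.1% of Il4, 99.5% of Il3, 66.7% of Il21 (6 of 9), 44.0% of Il2, 43.0% of Csf2, 38.2% of Ccl1, 32.0% of Il13, 26.5% of Il17a and 24.9% of Ifng UMIs lay past the limit, and at the lower end 12.7% of Penk, 5.56% of 18 Il10 and 4.76% of 21 Il5 UMIs. High barcodes held 14.8% of the UMIs in barcodes with at least 500 genes of that library, but 22.7% of UMIs outside mt- genes in T/NK-like barcodes and 22.6% of Cd3e UMIs, so the shares of Il17a and Ifng were near those of T/NK-like RNA as a whole. Of 8 barcodes with Il17a, the gene that led cluster 17, 5 were high, but 180 of 275 UMIs came from 1 low barcode. Il2 showed the same pattern, with 73 of the 80 UMIs of high barcodes in 1 barcode and 94 of the 102 of low barcodes in another. The high barcodes of the sensitive library held 0% of 917 Il4 and of 873 Il17a UMIs and 1.75% of 3375 Il13 UMIs.

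**Figure D5:**
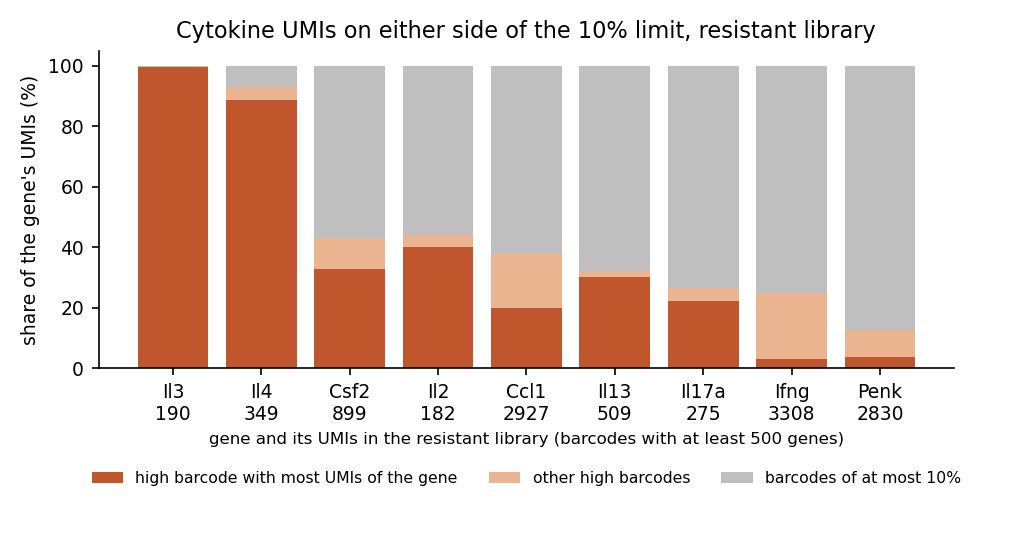
Share of each cytokine gene's UMIs in the resistant library (y axis, percent; the number under each gene is its total) that lay in the high barcode with most of them (dark), in other high barcodes (light) and in low barcodes (grey). Il3 and Il4 are almost wholly dark, from 1 barcode, while Ifng is spread, with 24.9% in high barcodes.

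The limit therefore changed some comparisons between the libraries and left others in place. In T/NK-like barcodes Il4 was 3.51-fold (3.09 to 3.99) higher in the sensitive library with high barcodes kept and 76.2-fold (43.4 to 148) without them. Leaving out only the resistant barcode with most Il4 gave 48.8-fold (32.6 to 76.5). Sensitive Il4 was uneven too, with 606 of 917 UMIs of the library in 1 low barcode. Il13 went from 8.68- to 9.85-fold, Csf2 from 1.73- to 2.47-fold, Ccl1 from 2.40- to 3.15-fold and Ifng from 1.52- to 1.57-fold. Il21 went from 11.5-fold (5.54 to 27.7) to 35.5-fold (9.47 to 298.9), on 8 and 2 resistant UMIs. The share of T/NK-like barcodes with an Il17a UMI was 1.30% (0.865 to 1.87) in the sensitive and 0.261% (0.113 to 0.514) in the resistant library with all barcodes, and 1.33% (0.885 to 1.92) and 0.156% (0.0321 to 0.454) without the high ones. Tcf7 went from 1.59- to 2.05-fold and Cd4 from 2.89- to 3.83-fold higher in the sensitive library, while Cd3e (1.07 and 1.07), Cd8a (0.891 and 0.899) and Pdcd1 (0.941 and 0.910) barely moved.

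Shares of classes moved too, here over all barcodes but the 4 set apart for immunoglobulin UMIs. Fibroblast-like barcodes were 14.7% (13.7 to 15.7) of the resistant library with and 19.9% (18.5 to 21.3) without the high barcodes, against 23.9% and 24.3% in the sensitive one. Neutrophil-like barcodes went from 8.77% (7.99 to 9.603) to 5.79% (5.01 to 6.65) in the resistant library. The T/NK-like share went from 62.9% to 59.3%, next to 58.5% and 59.2% in the sensitive library. Within T/NK-like barcodes of the resistant library the deep cluster 9 went from 9.15% (8.15 to 10.2) to 12.7% (11.2 to 14.2) and cluster 6 from 9.58% (8.56 to 10.7) to 6.69% (5.62 to 7.90). For cluster 6 the sensitive over resistant ratio of shares thereby went from 1.27 to 1.83.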

How the data were processed

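Raw UMI counts per gene and barcode were deposited by the authors, who made them with Cell Ranger (6.0.0 per the file headers; genome build mm10); a mitochondrial or gene-number limit of theirs is not given in the sources used here, and their gate on Ptprc and Cd3e was applied only where named. The rule, members and gene lists were chosen with earlier results of these data known. Barcodes with at least 500 genes of both libraries were scaled to 10000 UMIs, log-transformed and clustered with scanpy 1.11.5 without mt- genes (2000 variable genes, 30 components, 15 neighbors, Leiden resolution 1, no correction between libraries). A name needed 3 markers, each in at least 10% of barcodes and 1 log2 unit above the lower quartile of clusters (pseudocount 10 CPM); the scoring rule was set after the clusters were seen. T and NK names were pooled, and 4 barcodes with over 25% immunoglobulin UMIs, none of them high, were set apart. No doublets were removed. CPM were taken without mt- genes. Ratios were checked on simulated totals drawn independently per gene, without the concentration in single barcodes that the real counts have. For zeros, 3 counts gave the limit. Genes named from a list were to pass 1.5-fold the same way in both libraries, up to 4 per list; since few did, others were chosen after their values were seen. Over all genes, the 10 highest and lowest were named. Positions are from GENCODE M21. Alternatives covered the limits, thinning, resolution, a Cd3 gate, depth matching, scaling, single barcodes and doublet scores.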

Additional observations from a re-analysis of the deposited data

Results flagged for a closer look

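In T/NK-like barcodes 7 genes were past 1.5-fold higher in high barcodes of one library and past 1.5-fold lower in those of the other. These differences between libraries were not tested, and the sensitive values rest on 48 high barcodes. Higher in the resistant and lower in the sensitive library were Csf2 (2.82, and 0 with no UMI in sensitive high T/NK-like barcodes), Ccl1 (2.35 and 0.519), Cd74 (2.23 and 0.226), Tmem176b (1.59 and 0.589) and Ly6c2 (1.51 and 0.356). Lower in the resistant and higher in the sensitive library were Gzmb (0.469 and 1.53) and Prf1 (0.558 and 2.20). Of the resistant Csf2 and Ccl1 UMIs, 295 and 581 came from the single barcode with most Il4. Without the barcode with most UMIs of the gene in each group, Gzmb came to 0.890 in the sensitive library, beside a median of 0.788 over all genes. None of the 7 was among the 5 genes past 1.5-fold in the resistant library with depth matched, where Gzmb had 0.690 (0.641 to 0.742) and Prf1 0.933 (0.794 to 1.10).

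Barcodes with fewer than 500 genes entered no comparison. In the resistant library 1180 of 1248 of them (94.6%) were over 10% mitochondrial UMIs, with a median share of 40.9%, and in the sensitive library 110 of 266 (41.4%), with a median of 6.11%.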

How the results depend on the processing

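No paired analysis was possible because each group had 1 library and no test was made. For each value named below, the cause of its difference between settings was not tested. The share of high barcodes was 11.5% (sensitive) and 65.9% (resistant) at a limit of 5%, 1.55% and 17.6% at 15%, 0.815% and 10.2% at 20%, and 5.08% and 43.5% with at least 200 genes. It was the larger one in the resistant library at every setting. At 20% it was 0.325%, 4%, 2.85%, 0.227% and 2.88% of sensitive T/NK-, neutrophil-, macrophage-, fibroblast- and cancer cell-like barcodes and 9.97%, 23.2%, 12.2%, 3.36% and 6.86% of resistant ones. A gate of 2 Cd3 UMIs gave 34.7% for resistant T cells.

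Lineage shares, high over low, were 0 for Cd4 and Epcam (sensitive) and 0.905 for Cd3e (resistant) at 20%. Against barcodes of at most 5% the resistant ratios of Cd3e, Cd8a and Col1a1 were 1.36, 1.30 and 0.119, and without thinning those of Cd8a, Col1a1 and S100a8 were 0.941, 0.265 and 1.63.

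Genes past 1.5-fold higher and lower were as follows where they moved. Depth matching gave 3 and 2 (resistant) and 1 and 2 (both libraries). The 20% limit, with 7 sensitive high T/NK-like barcodes, gave 2 and 84 (sensitive), 2 and 8 (resistant) and 1 and 3 (both). At least 30 expected UMIs gave 25 and 69, 7 and 16, and 3 and 8. The Cd3 gate gave 20 and 62 in both, with 92 lower in the resistant library. Median scaling gave 16 higher in both. Eligibility in the resistant library alone, chosen after seeing the data, gave 796 and 577.

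For stress and death genes the Cd3 gate gave 1 higher and 7 lower (resistant) and 1 and 3 (both). Sensitive counts were 8 higher as means of single barcodes, 9 higher and 2 lower after median scaling, 2 and 9 without the top barcode (2 lower in both), 0 and 1 at 20%, and 3 higher without the highest Scrublet scores. Leaving out the top barcode also lowered the sensitive median over all genes, from 0.924 to 0.788. Resistant lower counts were 0 as means, at 20% and depth-matched.

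Reversed sensitive ratios at 20% were Bcl11b 0.976, Bst2 1.19, Ccr2 0, Fasl 0.673, Gzma 0, Il13 0, Lmnb1 1.19, Pclaf 2.08, Top2a 5.72, Tubb5 1.97, Ube2c 1.16 and the cell cycle list 1.10. Resistant Il13 was 0.159. As means of single barcodes sensitive Ccr2, Pclaf and Top2a were 0.891, 1.37 and 1.91. Under the Cd3 gate sensitive Gzma and Trbv1 were 0.123 and 2.08, and without the top barcode sensitive Gzma, Gzmb and Il13 were 0.913, 0.890 and 0. With depth matched, sensitive Pclaf, Stmn1, Top2a and Ube2c were 12.5, 5.26, 1.95 and 1.19 (list 1.95), and resistant Fabp5, Lmnb1, Pclaf, Ran, Stmn1, Top2a, Tubb5 and Ube2c 1.22, 1.37, 1.98, 1.02, 1.68, 1.82, 1.02 and 2.85 (list 1.68 over the 3 members eligible in both libraries before matching).

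Sensitive over resistant cytokine ratios, also looked at after seeing the data, were, without the high barcodes and without the 1 resistant barcode, 76.2 and 48.8 for Il4, 9.85 and 12.5 for Il13, 2.47 and 2.65 for Csf2, 3.15 and 3.05 for Ccl1, and 1.01 and 1.30 for Il3, which reversed on 1 UMI in the sensitive library.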

Other observations

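The barcodes with fewer than 500 genes had median depths of 753 (resistant) and 745.5 UMIs (sensitive). In the resistant library Lyz2 was found in 27.0% (24.6 to 29.6) of them, S100a8 in 12.3% (10.6 to 14.3), Cd3e in 8.73% (7.23 to 10.4) and Col1a1 in 6.01% (4.76 to 7.48). In the sensitive library the shares were 14.7% (10.6 to 19.5), 10.53% (7.11 to 14.9), 11.7% (8.06 to 16.1) and 10.53% (7.11 to 14.9). Counted over all barcodes of any gene number, 45.7% of the resistant and 5.90% of the sensitive library lay past 10%.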
